A study of Homo sapiens with 6 samples.

Results

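RNA levels of 10 known target genes of p53 (CDKN1A, MDM2, TP53I3, BBC3, SESN1, SESN2, GDF15, FAS, BTG2 and RRM2B) were examined in U87MG cells with and without added LMO2. U87MG is an established human glioblastoma cell line that is known for a working p53 response. The genes were taken from a fixed list and found by symbol and Entrez gene ID, and all 10 had counts in the tables, among 27257 genes with counts in at least 1 library. In U87MG-control, the cells were infected with a control lentivirus for 24 h (n = 3 libraries). In U87MG-LMO2, they were infected for 24 h with a lentivirus that carries LMO2, a LIM-domain adaptor protein known from blood cell formation (n = 3 libraries). The study made these libraries to find genes that change with LMO2 in work on STAT3 signaling. Both groups come from this 1 line, the study's methods give pLL-CMV-puro, a vector with a CMV promoter, for LMO2, and nothing says that the libraries of a group come from separate cultures, so p-values measure the spread between these libraries, which may be technical. No treatment that damages DNA was part of either group.

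p53 is a transcription factor that is held at a low level by the ubiquitin ligase MDM2 and accumulates when DNA is damaged or the cell is under other stress. It binds DNA as a tetramer, at elements built from 2 copies of a half-site with a conserved CNNG core, and turns on genes that stop the cell cycle, start apoptosis, repair DNA, limit oxidative stress and feed back on p53 itself. In glioblastoma the pathway is often disabled, for example by amplification of MDM2.

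The libraries held 11428432 to 13537284 expected counts in U87MG-control and 14630627 to 17892955 in U87MG-LMO2, and depth did not overlap between the groups. Values below are given as CPM, counts brought to a common total after scaling of the library sizes, or as FPKM where genes are compared with each other, since FPKM also divides by transcript length. The added gene was as labelled. LMO2 had 0.607, 0.803 and 0.378 CPM in U87MG-control replicates 1 to 3 and 333, 307 and 878 CPM in U87MG-LMO2 replicates 1 to 3 (log2 fold change 9.70, SE 0.60, edgeR adjusted p = 4.13e-04), and U87MG-LMO2 replicate 3 was the highest. The table of that library was damaged in 132 genes, SESN2 among them, and these genes were left out of the test over all 6 libraries. Of the glioma and astrocyte markers, vimentin, CD44 and nestin were present. The summed level of the marker list was 12200 to 12400 CPM in U87MG-control and 12300 to 14400 in U87MG-LMO2, most of it vimentin (10950 to 11120 CPM in U87MG-control). S100B and AQP4 had at most 3 counts in every library, SOX2 had at most 4, OLIG2 had 0.409 to 1.06 CPM, and GFAP was below 1 CPM in the intact libraries. Summed markers of neurons (27.2 to 34.4 against 27.1 to 36.2 CPM), oligodendrocytes (6.25 to 7.26 against 3.19 to 6.59), microglia and leukocytes (399 to 532 against 306 to 584, nearly all of it CD68) and endothelium (4.42 to 5.70 against 4.29 to 5.06) overlapped between the groups, and of these genes CSF1R alone passed the test, higher in U87MG-LMO2 (log2 fold change 0.81, edgeR adjusted p = 0.0325). Their part in the results was not tested.

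The levels of RRM2B, SESN1 and FAS were lower in every U87MG-LMO2 library than in any control library, by 0.39 to 0.71 on the log2 scale. Such a lack of overlap was seen in 16.6% (lower) and 17.5% (higher) of all tested genes. SESN2 was lower in the 2 U87MG-LMO2 libraries that kept its counts (log2 fold change -0.41). Its replicate 3 value, also lower, was only recovered as FPKM from the authors' mean. BTG2 was at -0.61 with overlapping groups. CDKN1A and MDM2 differed by 0.20 and -0.22, and TP53I3, BBC3 and GDF15 had no common direction among the libraries. No gene of the 9 tested in all 6 libraries passed the threshold of an adjusted p of 0.05, in either direction, by edgeR's quasi-likelihood test with Benjamini-Hochberg adjustment over 16092 genes. At an unadjusted p under 0.05, 3 were lower in U87MG-LMO2 (SESN1, FAS and RRM2B) and 0 were higher. Of all tested genes, 4.72% were called higher and 2.75% lower, 7.48% in either direction, and at an unadjusted p under 0.05 13.8% were higher and 11.9% lower. The median log2 fold change of the 9 genes was -0.22, beside -0.011 over all genes, and 6 of the 9 were below 0 (66.7%, beside 51.1% of all genes). In bulk RNA, fewer cells that express a gene and less RNA of it per cell cannot be told apart. DESeq2 called 1 gene (RRM2B, lower), beside 4.29% of all genes called lower by it, and limma on log2(FPKM + 1) called 0. A smallest p of 0.1 is all that an exact permutation test of 3 against 3 libraries allows, so such a test could call no gene here.

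Within U87MG-control the genes fell into steps of level. CDKN1A stood alone at the top (87.9 FPKM ± 5.52, SD, n = 3). TP53I3 (18.4 ± 2.84) and SESN2 (17.3 ± 2.93) followed and overlapped each other, and both lay above MDM2 (13.8 ± 1.19) in every library. In replicate 1, however, TP53I3 and MDM2 were almost level (15.19 and 15.11 FPKM). RRM2B (8.80 ± 1.42) and FAS (7.47 ± 0.239) did not overlap, by a narrow margin, while GDF15 (7.20 ± 1.78) spanned both. BBC3 (4.36 ± 0.511) and SESN1 (3.57 ± 0.362) overlapped, and BTG2 was the lowest (0.803 ± 0.224). How well a gene can be measured depends on its counts, and their order differs from that of FPKM. In U87MG-control TP53I3 had 237 to 369 counts and MDM2, at a lower FPKM, 997 to 1188. CDKN1A had 2344 to 3820 counts per library, whereas BTG2 had 18 to 33, so a change of BTG2 has to be larger to be seen.

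**Figure D1:**
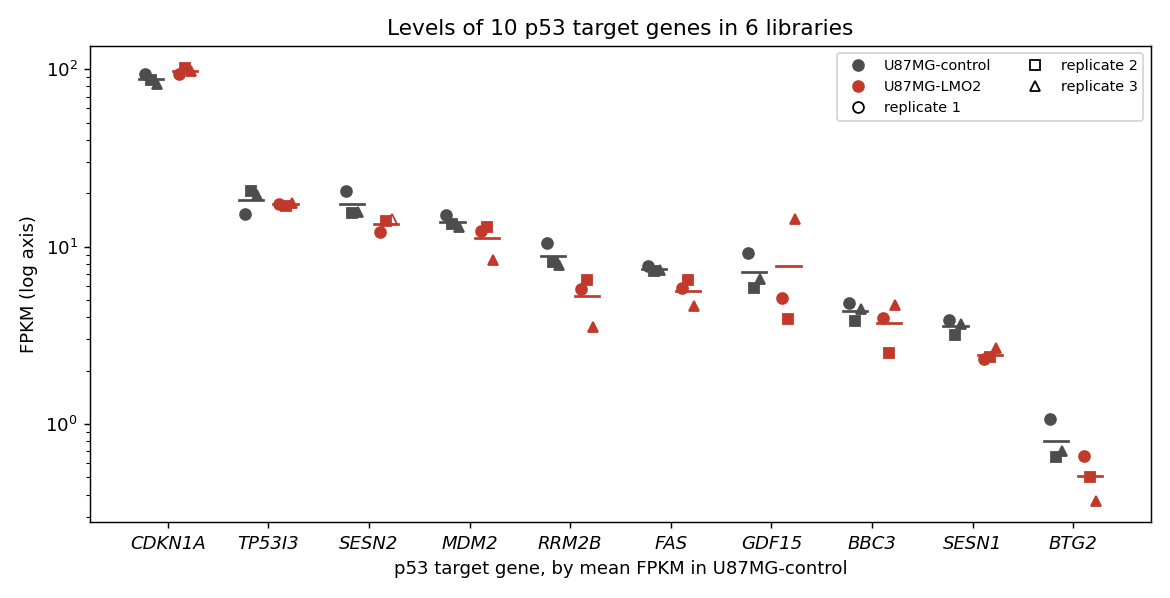
FPKM (log axis) of the 10 p53 target genes in each of 6 libraries, with U87MG-control in grey and U87MG-LMO2 in red, the marker shape giving the replicate, horizontal bars the group means and the open triangle the SESN2 value recovered from the authors' mean. CDKN1A lies near 90 FPKM in all libraries, BTG2 near or under 1, and GDF15 has 1 high library, U87MG-LMO2 replicate 3.

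MDM2 (Entrez gene 4193), the ligase that marks p53 for degradation and is itself induced by p53, had 86.5, 86.8 and 77.5 CPM in U87MG-control replicates 1 to 3 and 76.4, 78.8 and 60.01 CPM in U87MG-LMO2 replicates 1 to 3. The groups overlapped in a single pair of libraries, and U87MG-LMO2 replicate 3 was the lowest of the 6. The log2 fold change was -0.22, with a 95% confidence interval from -0.50 to 0.061 (edgeR adjusted p = 0.299). Without that library it was -0.11. MDM2 is known for an additional promoter inside its first intron that p53 acts on, and that promoter is shown because it holds a match to the full p53 element. The stretch below is the plus strand of RefSeq GRCh38.p14, chr12:68808867-68808986, from 150 to 31 bases before an annotated MDM2 start, and overlaps no exon of the GENCODE v29 annotation. Capitals mark the match, 2 half-sites side by side with 2 mismatches and both CNNG cores kept.
MDM2 intronic promoter: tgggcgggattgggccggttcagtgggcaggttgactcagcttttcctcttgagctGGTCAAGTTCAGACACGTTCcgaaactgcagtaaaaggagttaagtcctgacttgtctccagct

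CDKN1A (Entrez gene 1026) encodes p21, the inhibitor of cyclin-dependent kinases through which p53 stops the cell cycle. It had 203.4, 188 and 179.7 CPM in U87MG-control and 202.5, 223 and 230.2 CPM in U87MG-LMO2, in replicate order. The 3 U87MG-LMO2 libraries reached from within the control range to just above it, and only the first of them overlapped. The difference was 0.20 on the log2 scale (a ratio of 1.15, 95% confidence interval of the log2 value -0.028 to 0.42, edgeR adjusted p = 0.25). In FPKM the groups did not overlap (82.85 to 93.80 against 93.81 to 102), although the nearest libraries of the groups were almost level. The whole interval lies below a 2-fold rise of CDKN1A. BTG2 (Entrez gene 7832), an antiproliferative protein that slows entry into S phase, was at the opposite end of the level scale, with 33, 24 and 25 counts in U87MG-control and 29, 20 and 18 in U87MG-LMO2. Scaled, these were 2.86, 1.75 and 1.89 against 1.77, 1.36 and 1.08 CPM. Only U87MG-control replicate 1 stood clearly above the rest, and without it the log2 fold change of -0.61 (95% confidence interval -1.29 to 0.068, edgeR adjusted p = 0.239) became -0.37.

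FAS and BBC3 stand for both routes into apoptosis. FAS (Entrez gene 355), the death receptor at the cell surface, had 29.8, 27.2 and 30.5 CPM in U87MG-control and 23.2, 22.7 and 20.8 CPM in U87MG-LMO2. All 3 U87MG-LMO2 libraries were below all control libraries, and the spread within each group was small (29.2 ± 1.71 and 22.2 ± 1.27 CPM, SD). FAS was thus 0.39 lower on the log2 scale (95% confidence interval -0.65 to -0.14), with an unadjusted edgeR p of 0.00698 and an adjusted p of 0.0695. Over the 14 alternatives the adjusted p ran from 0.0523 to 0.268. Of 9 further fits that left out U87MG-LMO2 replicate 3, some of them 1 more library as well, FAS was called in 1. That fit also left out U87MG-control replicate 1 (log2 fold change -0.33, edgeR adjusted p = 0.0479), and 8.52% of all genes were called lower in it. After correction for GC content (39.1% in FAS) the log2 difference was -0.20. FAS overlaps ACTA2 on the opposite strand, and since the strand setting of the counting is not given, reads of both genes cannot be told apart where they overlap. TP53I3 with FAM228B, MDM2 with CPM, CDKN1A with DINOL and SESN1 with AL390208.1 also overlap on opposite strands. Those overlaps are of whole genes, introns included, and whether exons are shared was not examined. The ligand gene FASLG had at most 2 counts in any library. The FAS stretch shown here is the plus strand of RefSeq GRCh38.p14, chr10:88991304-88991333, from 127 to 98 bases before a FAS start. It lies in exons of the transcripts FAS-201, FAS-207 and ACTA2-202 in GENCODE v29. It is shown because it was 1 of only 2 promoters of these genes with an exact half-site, and the capitals mark that half-site together with the adjoining one, 2 mismatches in all.
FAS promoter: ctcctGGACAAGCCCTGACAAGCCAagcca

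BBC3 (Entrez gene 27113), which encodes PUMA, a BH3-only protein that promotes the release of cytochrome c from mitochondria, had 8.15, 6.86 and 7.57 CPM in U87MG-control and 6.89, 4.50 and 8.98 CPM in U87MG-LMO2. The U87MG-LMO2 libraries lay on both sides of the control range, with replicate 2 as the lowest and replicate 3 as the highest of all 6. The log2 fold change of -0.14 had an interval from -0.69 to 0.41 (edgeR adjusted p = 0.746), and it was 0.078 without U87MG-LMO2 replicate 2 and -0.39 without replicate 3.

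The sestrins SESN1 and SESN2, which lower oxidative stress and restrain mTORC1 when amino acids are scarce, were both lower. SESN1 (Entrez gene 27244) had 10.8, 9.27 and 10.7 CPM in U87MG-control and 6.89, 6.95 and 8.37 CPM in U87MG-LMO2, with no overlap. On the log2 scale it was lower by 0.47 (SE 0.15, 95% confidence interval of the fold change -0.82 to -0.12, edgeR adjusted p = 0.0989). Leaving out U87MG-LMO2 replicate 3, the highest of its group, made the difference -0.57 and the adjusted p 0.031, the only 1 of 14 alternatives in which SESN1 was called, and one in which 6.72% of all genes were called lower. In the 9 fits that left out U87MG-LMO2 replicate 3, some of them 1 more library as well, SESN1 was called in 5. There the edgeR adjusted p was 0.0305 to 0.0444, and 5.35 to 8.52% of all genes were called lower. Not called were DESeq2 (adjusted p = 0.0568), the edgeR fit without U87MG-control replicate 3 (0.0999) and those left with a single U87MG-LMO2 library (-0.56 and -0.58). These fits share libraries and are not independent. SESN2 (Entrez gene 83667) had 73.0, 54.3 and 54.7 CPM in U87MG-control and 42.2 and 49.1 CPM in U87MG-LMO2 replicates 1 and 2. Its line in replicate 3 was lost. The FPKM value of that library recovered from the authors' mean was 14.29, next to 12.10 and 13.89 in the other U87MG-LMO2 libraries and 20.68, 15.55 and 15.68 in U87MG-control, so that no U87MG-LMO2 value reached the control range. In the 5 intact libraries, in which 6.81% of all genes were called lower, the log2 fold change was -0.41 (95% confidence interval -0.72 to -0.095, edgeR adjusted p = 0.0806), and without U87MG-control replicate 1 it was -0.26. With the recovered value and limma on log2(FPKM + 1) it was -0.33 (adjusted p = 0.176). The remaining sestrin, SESN3, was near the limit of counting, with 2 to 12 counts per library, and was not tested. A stretch of the SESN1 promoter is shown for its exact half-site, in capitals. It is the minus strand of RefSeq GRCh38.p14, chr6:109008989-109009108, the 120 bases just before a SESN1 start, and overlaps no GENCODE v29 exon.
SESN1 promoter: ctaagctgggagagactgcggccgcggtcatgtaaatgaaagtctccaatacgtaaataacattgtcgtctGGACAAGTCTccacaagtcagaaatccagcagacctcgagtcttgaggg

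A half-site occurs by its letters alone in many promoters. Of 35116 RefSeq promoter windows (250 bases before to 50 after a start), searched on both strands, 6.63% held an exact p53 half-site, and 2.93% held an element of 2 half-sites with at most 2 mismatches, both CNNG cores kept and a spacer of 0 to 13 bases. Each element contains 2 imperfect or exact half-sites, so the searches overlap. Of the 9 genes with a window (RRM2B had none), 2 held the exact half-site (FAS and SESN1) and 2 the element (FAS and MDM2). Those shares are per window, and the 9 genes had 16 windows, of which 2 held the half-site and 3 the element. The MDM2 windows with the element hold the same site. These are matches of letters and not measured binding, and known p53 elements of several of these genes lie outside such a window.

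TP53I3 (Entrez gene 9540), a quinone oxidoreductase also known as PIG3, had 20.6, 27.0 and 26.6 CPM in U87MG-control and 23.4, 24.0 and 28.98 CPM in U87MG-LMO2. The groups lay over each other. Its log2 fold change of 0.042 (95% confidence interval -0.29 to 0.38, edgeR adjusted p = 0.883) changed sign with the unit and was -0.072 on log2(FPKM + 1).

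RRM2B (Entrez gene 50484), the p53-inducible subunit of ribonucleotide reductase that supplies nucleotides for DNA repair, had the largest fitted difference of the 10 genes. It had 51.5, 40.0 and 38.5 CPM in U87MG-control and 28.2, 32.3 and 18.8 CPM in U87MG-LMO2. Every U87MG-LMO2 library was below every control library, and the mean went from 43.4 ± 7.12 to 26.4 ± 6.92 CPM (SD, n = 3 each). The log2 fold change was -0.71 (SE 0.20, 95% confidence interval -1.18 to -0.25, a ratio of 0.61), and the unadjusted edgeR p of 0.00688 became 0.0689 after adjustment. RRM2B passed the threshold in 4 of 14 alternatives. These were DESeq2 (adjusted p = 0.0131, with 4.29% of all genes called lower), no filter on low counts (0.0328, 1.86%), leaving out U87MG-LMO2 replicate 2 (log2 fold change -0.88, adjusted p = 0.045, 1.86%) and leaving out U87MG-LMO2 replicate 3 (-0.52, 0.0356, 6.72%). It did not pass in the other 10, where the adjusted p reached 0.222. In the 9 fits without U87MG-LMO2 replicate 3, some of them without 1 more library, it was called in 6, with 4.37 to 8.52% of all genes called lower. Not called were the fit with the GC correction (-0.39, edgeR adjusted p = 0.0512) and those left with a single U87MG-LMO2 library (-0.42 and -0.62). The main subunits RRM1 (239 CPM ± 11.5 against 217 ± 65.0) and RRM2 (246 ± 4.12 against 284 ± 123) did not pass the test and overlapped between groups.

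GDF15 (Entrez gene 9518), a secreted stress hormone of the TGF-beta family, was the most uneven gene. It had 11.02, 6.94 and 7.87 CPM in U87MG-control and 6.10, 4.70 and 18.6 CPM in U87MG-LMO2. Replicates 1 and 2 of U87MG-LMO2 were below every control library, and replicate 3 was above all of them. The fitted log2 fold change of 0.20 therefore had a wide interval, -0.87 to 1.26 (edgeR adjusted p = 0.822), and without replicate 3 it was -0.66 (adjusted p = 0.0813). Among 9657 genes with a mean of at least 10 CPM, those whose log2 CPM followed GDF15 most closely over the 6 libraries were FLT3LG, ITGA3 and PTPRG (Pearson r = 0.996, 0.995 and 0.994). ITGA3 had 3278, 2583 and 2578 CPM in U87MG-control and 2340, 1965 and 4236 CPM in U87MG-LMO2, and thus was also highest in U87MG-LMO2 replicate 3. For CDKN1A the closest genes were TARBP1, DYRK1A and SEC24D (0.988, 0.985 and 0.982). These coefficients describe 6 points that share their library and depth, and were the highest of 9657.

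**Figure D2:**
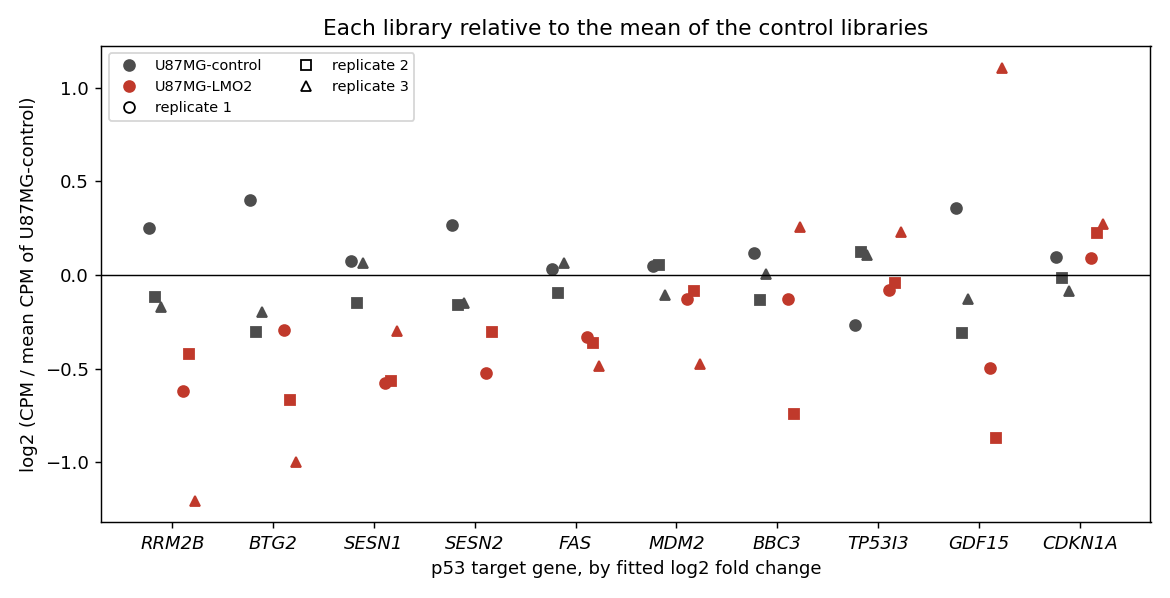
Each library's CPM of a gene on the log2 scale relative to the mean CPM of the 3 U87MG-control libraries (0 on the vertical axis), with genes ordered by fitted log2 fold change, U87MG-control in grey and U87MG-LMO2 in red, and SESN2 without its lost U87MG-LMO2 replicate 3. The red points of RRM2B, SESN1, SESN2 and FAS lie below all grey points, and the triangle of U87MG-LMO2 replicate 3 is the outermost point for most genes.

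Of the 9 genes tested in all libraries, 3 had U87MG-LMO2 values that were all below the control values (SESN1, FAS and RRM2B) and 0 had values that were all above, beside 16.6% and 17.5% of all genes. At an unadjusted p under 0.05, in either direction, the shares were 3 of 9 and 25.7%. U87MG-LMO2 replicate 3 was the highest or the lowest of the 6 libraries for 8 of the 9 genes, all but SESN1, beside 54.8% of all genes. It was the highest for CDKN1A, TP53I3, BBC3 and GDF15 and the lowest for MDM2, FAS, BTG2 and RRM2B. The former 4 genes have a GC content of 58.1 to 69.7% and the latter 4 of 36.4 to 50.3%. This library was also the deepest and had the most LMO2. How much GC content, depth or the LMO2 level contributed was not tested. A further fit had each library's GC trend removed, which also takes out any true difference that goes with GC content. There the log2 fold changes were 0.046 for CDKN1A, -0.088 for MDM2, -0.20 for FAS, -0.36 for SESN1 and -0.51 for RRM2B (edgeR adjusted p from 0.0725 to 0.822 for these 5). That of BBC3 moved the other way, from -0.14 to -0.49 (adjusted p = 0.18), TP53I3 and GDF15 were at -0.12 and -0.096, BTG2 was at -0.64, and none of the 9 genes was called.

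**Figure D3:**
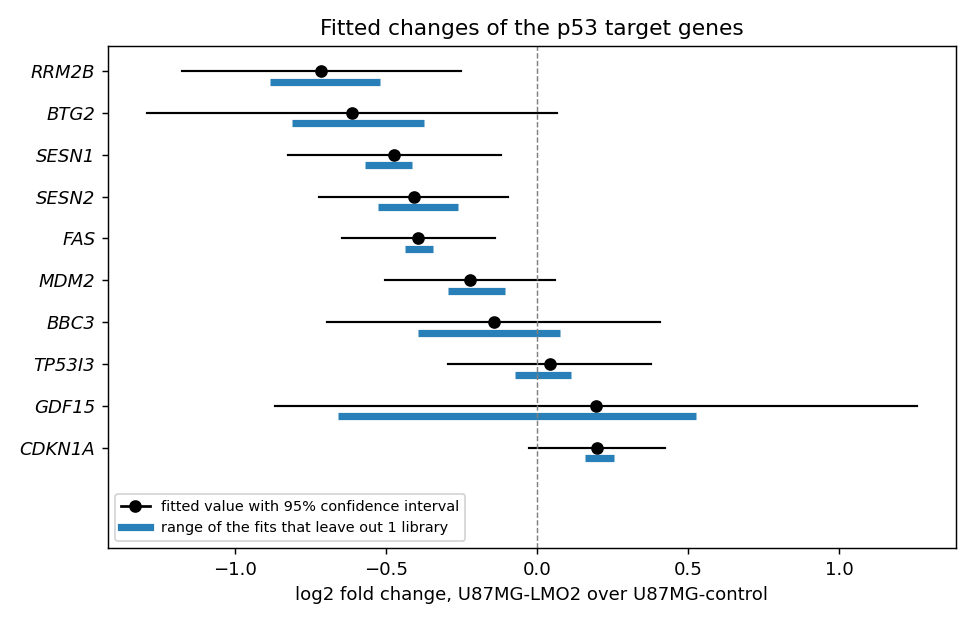
Fitted log2 fold change of U87MG-LMO2 over U87MG-control for each of the 10 genes (black points) with the 95% confidence interval (black lines) and the range of the fits that leave out 1 library at a time (blue bars). The intervals of RRM2B, SESN1, SESN2 and FAS lie below 0 before adjustment over all genes, and the blue bars of BBC3, TP53I3 and GDF15 cross 0.

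CDKN1A was higher relative to several of the other targets in U87MG-LMO2. This comparison was chosen after the values were seen. Within a library the ratio of the counts of CDKN1A to those of another gene does not depend on library size. CDKN1A had 3.95, 4.70 and 4.67 times the counts of RRM2B in U87MG-control and 7.19, 6.89 and 12.2 times in U87MG-LMO2. Against FAS the ratios were 6.83, 6.91 and 5.90 in U87MG-control and 8.74, 9.80 and 11.1 in U87MG-LMO2, and against MDM2 2.35, 2.17 and 2.32 and then 2.65, 2.83 and 3.84. The ratios to SESN1 (16.7 to 20.3 against 27.5 to 32.0) and BTG2 (71 to 107 against 114 to 212) were likewise higher in every U87MG-LMO2 library. Those to TP53I3, BBC3 and GDF15 overlapped. The ratio was thus higher without overlap for 5 of 8 genes, beside 31.6% of 16021 genes set against CDKN1A in the same way, and all of these ratios share the CDKN1A values. The 5 genes have a GC content of 36.4 to 50.3%, below the 58.1% of CDKN1A, and TP53I3, BBC3 and GDF15 of 58.4 to 69.7%. A ratio of counts does not remove a GC trend, and the part of GC content in these ratios was not tested.

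Among regulators and relatives of p53, MDM4, the partner of MDM2 in restraining it, was at 41.9 CPM ± 2.25 and 41.4 ± 5.23 (log2 fold change -0.018, interval -0.29 to 0.26). Of 16 tested genes of this list, edgeR called 1 higher and 1 lower, beside 4.72% and 2.75% of all genes. Their median log2 fold change was -0.23, and 11 were below 0 (68.8%, beside 51.1% of all genes). At an unadjusted p under 0.05, 1 was higher and 5 were lower, beside 13.8% and 11.9% of all genes. Without overlap of the groups, 1 was higher and 7 were lower, beside 17.5% and 16.6%. TP73, a p53 relative that can bind the same elements, rose from 20, 15 and 27 counts to 95, 96 and 64 counts (1.63 CPM ± 0.483 to 5.40 ± 1.39, log2 fold change 1.73, SE 0.30, edgeR adjusted p = 0.0156). ATM, the kinase that activates p53 after double-strand breaks, fell from 40.3 CPM ± 3.47 to 28.3 ± 2.10 (log2 fold change -0.51, adjusted p = 0.0367). Neither call held when any 1 control library or U87MG-LMO2 replicate 1 was left out (adjusted p from 0.0573 to 0.0714 for TP73 and from 0.0985 to 0.128 for ATM). After correction for GC content ATM was at -0.32 (adjusted p = 0.0897). CDKN2A was not analysed here.

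Further p53 targets, 52 genes listed by function, showed both directions. Of the 48 that were tested, edgeR called 5 higher and 3 lower, beside 4.72% and 2.75% of all genes, and their median log2 fold change was -0.058. At an unadjusted p under 0.05, 10 were higher and 13 lower, beside 13.8% and 11.9% of all genes. The groups did not overlap for 11 that were higher and 16 that were lower, beside 17.5% and 16.6% of all genes. In the cell cycle group, PLK2, a polo-like kinase of the stress response, rose from 39.0, 41.0 and 43.5 CPM to 88.2, 101 and 73.7 CPM (log2 fold change 1.09, SE 0.13, edgeR adjusted p = 0.00453) and was called in all 14 alternatives. CCNG1, cyclin G1, which recruits a phosphatase to MDM2, fell from 95.1, 84.2 and 84.0 CPM to 54.1, 54.1 and 43.3 CPM (log2 fold change -0.80, SE 0.12, adjusted p = 0.0108) and was called in 12 of 14, the exceptions being the fits without U87MG-control replicate 1 (0.0543) or 3 (0.0533). GADD45A, a growth arrest and DNA damage protein, rose from a mean of 21.3 to 29.5 CPM (log2 fold change 0.47, adjusted p = 0.0448). These were 3 of 8 tested arrest genes, with 2 rising and 1 falling.

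In the apoptosis group, 1 of 12 rose and 1 fell. NINJ1, a membrane protein known for rupturing dying cells, went from 36.9 CPM ± 0.479 to 57.6 ± 4.07 (log2 fold change 0.64, edgeR adjusted p = 0.0114). PMAIP1, which encodes NOXA, a BH3-only protein like PUMA, fell from 57, 60 and 66 counts to 26, 36 and 44 counts (log2 fold change -1.10, SE 0.23, adjusted p = 0.0303). Among the secreted and surface proteins, IGFBP3, which binds insulin-like growth factors, rose from 15.8 CPM ± 0.362 to 48.3 ± 27.3, with 49.9, 74.8 and 20.3 CPM in U87MG-LMO2 (log2 fold change 1.61, adjusted p = 0.0426), and KITLG, the ligand of the KIT receptor, fell from 23.7 to 15.7 CPM (-0.60, adjusted p = 0.0358), 2 of 7 tested genes. STEAP3, a metalloreductase, was the only call of 10 genes of metabolism, redox and autophagy (209.9 to 300.4 CPM, log2 fold change 0.52, adjusted p = 0.0499). None of the 6 DNA repair genes passed the edgeR test, all 6 had log2 fold changes below 0 (median -0.14), and 2 of them had an unadjusted p under 0.05. None of 5 genes that feed back on p53 passed it either, with 1 higher and 1 lower at an unadjusted p under 0.05. With any 1 control library left out, NINJ1, PMAIP1, GADD45A, STEAP3, IGFBP3 and KITLG were no longer called (adjusted p from 0.0561 to 0.168). KITLG, IGFBP3 and GADD45A also lost their calls without U87MG-LMO2 replicate 1 or 2 (0.0553 to 0.119), PMAIP1 without replicate 1 (0.0932) and STEAP3 without replicate 2 (0.0846). Removal of the GC trend left PMAIP1, KITLG, STEAP3 and GADD45A at adjusted p-values of 0.0543 to 0.0921, with KITLG at -0.39.

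**Figure D4:**
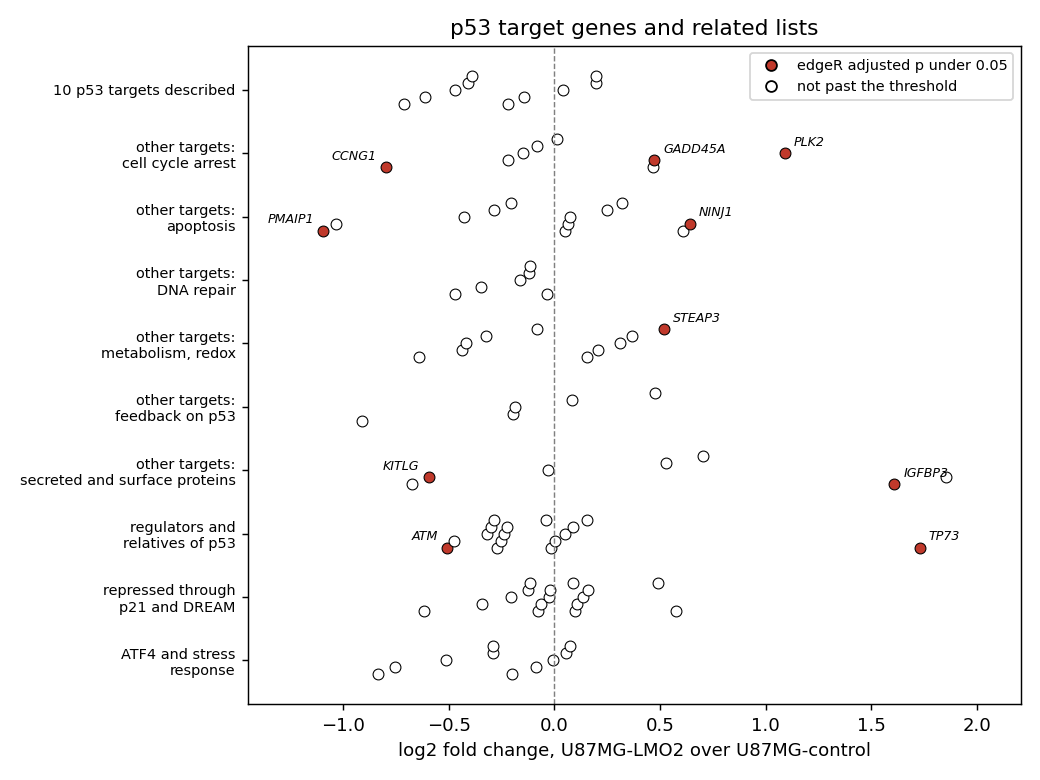
Fitted log2 fold change of U87MG-LMO2 over U87MG-control (horizontal axis) for the 10 p53 target genes and for the tested genes of each related list, 1 point a gene, with genes past the edgeR threshold in red and named and small vertical offsets only to separate points. The 10 genes hold no red point, PLK2, TP73 and IGFBP3 lie farthest to the right among the red points, and PMAIP1 and CCNG1 farthest to the left.

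Lists of genes downstream of other steps were counted in the same way. Of 16 cell cycle genes that p53 represses through p21 and the DREAM complex, edgeR called 0, with a median log2 fold change of -0.023 (2 higher and 1 lower at an unadjusted p under 0.05, 1 called higher by DESeq2 and 0 by limma). U87MG-LMO2 replicate 3 stood apart in this list and was the lowest of the 6 libraries for 12 of the 16 genes, beside 28.3% of all genes. TOP2A, a topoisomerase of dividing cells, had 197 to 213 CPM in U87MG-control and 234, 259 and 91.8 CPM in U87MG-LMO2. Without replicate 3, 4 genes were called higher (CDK1, MYBL2, E2F1 and KIF23), in a fit that called 1307 of all 16392 genes higher. Of 10 genes of the ATF4 stress response, which can drive SESN2 and GDF15 without p53, edgeR called 0. Here 8 of 10 were below 0, the median was -0.25, and 3 were lower at an unadjusted p under 0.05 (1 called by DESeq2 and 0 by limma). Without U87MG-LMO2 replicate 3, edgeR called 3 of them lower (DDIT3, DDIT4 and VLDLR), beside 6.72% of all genes. Of 11 relatives of the target genes, 6 were tested and 0 were called by edgeR (1 higher at an unadjusted p under 0.05).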

How the data were processed

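Total RNA of the 6 libraries was prepared and sequenced by a service company, per the labels. The authors deposited for each library an expected count per gene, an estimate of its reads that is not normalized and need not be whole, and an FPKM value scaled to gene length and mapped reads. The submitters' processing notes name GRCh38.p12, Bowtie2 and BWA, without roles, and the counting program, its strand setting and the annotation are not given in the sources used here. The authors' deposited comparison table holds group mean FPKM, log2 ratios and probabilities, of which only the means were used. All control means matched the library tables (within 0.002 FPKM), whereas 134 genes, 132 of them with counts, did not match for U87MG-LMO2, where the replicate 3 table has 3 unreadable lines. The replicate 3 FPKM of SESN2 was recovered from that mean. Genes without a line were taken as 0. RefSeq gave symbols for 89.6% of genes.

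Expected counts were rounded and tested with edgeR 4.0.16 in R 4.3.3 (filterByExpr, TMM, glmQLFit and glmQLFTest, 2-sided, no block), with adjustment by the Benjamini-Hochberg method over 16092 genes and a threshold of 0.05. SESN2 was fitted in the 5 intact libraries over all 16431 genes that passed the filter there. Confidence intervals are at 95%. The numbers of the replicates did not pair the samples (correlations of same-numbered deviations -0.12, -0.0034 and -0.041).

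The genes and lists were chosen with earlier results of these data known. Named were the 10 genes, LMO2, MDM4, SESN3, of each other list the called genes (at most 3 with the largest rise and 3 with the largest fall), called relatives, and the 3 genes most like CDKN1A and GDF15. GADD45A, STEAP3, RRM1, RRM2, FASLG, the named DREAM and ATF4 genes and the named markers were added after their values were seen. A gene of the list of regulators is not reported here. The alternatives tried were upper-quartile normalization, DESeq2 1.42.0, a stricter filter (10 counts or more per library) and none at all, limma 3.58.1 on log2(FPKM + 1) and log2(FPKM + 0.1), which understate changes of low genes, the replicate block and leaving out each library. Where this left SESN2 with 1 U87MG-LMO2 library, that library was assumed to vary like the controls. The GC correction (GENCODE v29 transcripts, lowess span 0.3, known for 89.8% of tested genes) and the fits over the 5 intact libraries, or fewer of them, were added after seeing the data.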

Additional observations from a re-analysis of the deposited data

How the results depend on the processing

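There were 3 libraries a group, and the 95% intervals of GDF15, BTG2 and BBC3 each span more than 1 on the log2 scale. LMO2 was called in all 13 alternatives that tested it (log2 fold change 7.67 to 10.0). CDKN1A, MDM2, FAS, BTG2 and SESN2 kept their direction and were not called in any of their 14 alternatives (10 for SESN2). FAS, however, was called in 1 of 9 further fits without U87MG-LMO2 replicate 3, some of which left out 1 more library. RRM2B was called with DESeq2 and with no filter on low counts (-0.71 in both), which made the count of called target genes 1. No cause of the following changes was tested, apart from the changed set of genes or libraries that an alternative itself makes.

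The sign turned for 4 genes. TP53I3 was -0.072 on log2(FPKM + 1), -0.075 on log2(FPKM + 0.1), -0.12 after the GC correction, -0.074 without U87MG-control replicate 1 and -0.063 without U87MG-LMO2 replicate 3. GDF15 was -0.066 and -0.096 on those FPKM scales, -0.096 after the GC correction and -0.66 without U87MG-LMO2 replicate 3. BBC3 was 0.078 without U87MG-LMO2 replicate 2. MDM4 was 0.12 with the GC trend removed, 0.030 without U87MG-control replicate 2, and from -0.088 to 0.079 when U87MG-LMO2 replicate 1 or 2 was left out.

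Adding the replicate number as a block left 387 genes called higher and 189 lower of all genes, 3 higher and 1 lower of the other p53 targets and 0 regulators lower, and gave GDF15 a log2 fold change of -0.027. It changed no call of the 10 genes. DESeq2 called 691 of all genes lower, 8 other p53 targets higher, 1 DREAM gene higher and 1 ATF4 gene lower. With no filter, 1 DREAM gene was called higher and 1 ATF4 gene lower, and with at least 10 counts 1 DREAM gene was called higher. On both FPKM scales 2 other p53 targets were called higher and 0 regulators lower. The GC correction left 1 other p53 target and 0 regulators called lower.

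Leaving out 1 library at a time gave 102 to 1307 of all genes called higher and 42 to 1102 lower, in each case most without U87MG-LMO2 replicate 3. It gave 0 to 2 target genes called lower, 1 to 10 other p53 targets higher and 0 to 7 lower, 0 to 1 regulators higher and 0 to 3 lower, 0 to 4 DREAM genes higher and 0 to 3 ATF4 genes lower. The median of the target genes ran from -0.39 to -0.20. By gene the log2 fold change ran from 0.16 to 0.26 for CDKN1A, -0.29 to -0.11 for MDM2, -0.074 to 0.11 for TP53I3, -0.39 to 0.078 for BBC3, -0.57 to -0.41 for SESN1, -0.66 to 0.53 for GDF15, -0.44 to -0.34 for FAS, -0.81 to -0.37 for BTG2, -0.88 to -0.52 for RRM2B and -0.53 to -0.26 for SESN2.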
